A study of Saccharomyces cerevisiae with 3 samples.

Results

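The genes described here are the peroxisome genes of the budding yeast Saccharomyces cerevisiae, those that build the organelle (PEX, for peroxin) and those that break down fatty acids inside it. The rule that picked them goes by gene name and uses no measured value. It was set with earlier results of these data known. Every probe set whose platform symbol is PEX followed by digits was taken. The probe sets of POX1, FOX2, POT1, FAA2, PXA1, PXA2, ECI1, DCI1, SPS19, ANT1, OAF1 and PIP2 were taken too. The rule found 37 probe sets, 1 for each of 37 genes, among 5498 S. cerevisiae probe sets and 10928 probe sets in all. Of these genes, 25 are biogenesis genes, 10 are fatty acid breakdown genes and 2 encode transcription factors.

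Total RNA was measured on 3 Affymetrix arrays, 1 for each group. The baseline array held 100% yeast background, the 1% array 99% background with 1% spike, and the 10% array 90% background with 10% spike. The background was the same in all of them, a W303 strain of mating type MAT-alpha that carries cdc15-2, a temperature-sensitive allele of a mitotic exit kinase gene. After release from the restrictive temperature the culture had grown in a fermentor for 340 minutes, in minimal media at 23 °C. The carbon source and the identity of the spike are not given in the labels used here, and the series design states that there were no replicates. The deposited values are log2 expression values of robust multi-array average (RMA) processing, so a difference of 1 is a 2-fold difference. With 1 array a group no test was possible and no error can be given, so precision is limited by the number of arrays. Counts of genes past a limit are therefore set beside the share of all 5498 S. cerevisiae probe sets past it. The mating type matched its markers: STE3, the a-factor receptor gene, and SAG1, the alpha-agglutinin gene, were at 13.75 and 14.44 in the baseline array, higher than 95.4% and 99.1% of S. cerevisiae probe sets.

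Peroxisomes are organelles with a single membrane that import folded enzymes from the cytosol. Cargo receptors recognise short targeting signals, dock at the membrane, release the enzyme inside and are returned to the cytosol after ubiquitination. In S. cerevisiae the organelle is the only site of fatty acid beta-oxidation. The transcription factors Oaf1 and Pip2 act as a pair on oleate response elements, so that growth on oleate induces many of these genes, whereas glucose represses them.

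The 37 probe sets lay mostly in the lower part of the yeast range. In the baseline array their levels ran from 6.27 for POX1 to 12.00 for PEX34, with a median of 10.28, whereas all S. cerevisiae probe sets had a median of 10.81. Of the 37, 28 lay below that yeast median in each of the 3 arrays. The lowest 25% of yeast probe sets in the baseline array included 13 of them and the highest 25% included 2. Probe sets differ in how strongly they bind their target, so the order of levels is that of the probe sets and cannot be read as an order of transcript amounts.

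Breakdown genes had lower probe set levels than biogenesis genes in every array. The median level of the 25 biogenesis genes was 10.42 in the baseline, 1% and 10% arrays, and that of the 10 breakdown genes was 9.40 in all of them. The difference of the medians, biogenesis minus breakdown, was 1.02 in each array. The baseline median of the biogenesis genes lay above 39.6% of S. cerevisiae probe sets and that of the breakdown genes above 18.4%. The groups overlapped: 2 breakdown genes lay above the biogenesis median, and 3 biogenesis genes lay below the breakdown median. In the baseline array 7 of 10 breakdown genes were among the lowest 25% of yeast probe sets, below 9.79, and 5 of 25 biogenesis genes were. The same counts held in the 1% and the 10% array. All arrays carry the same background, so they do not repeat this comparison independently.

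**Figure D1:**
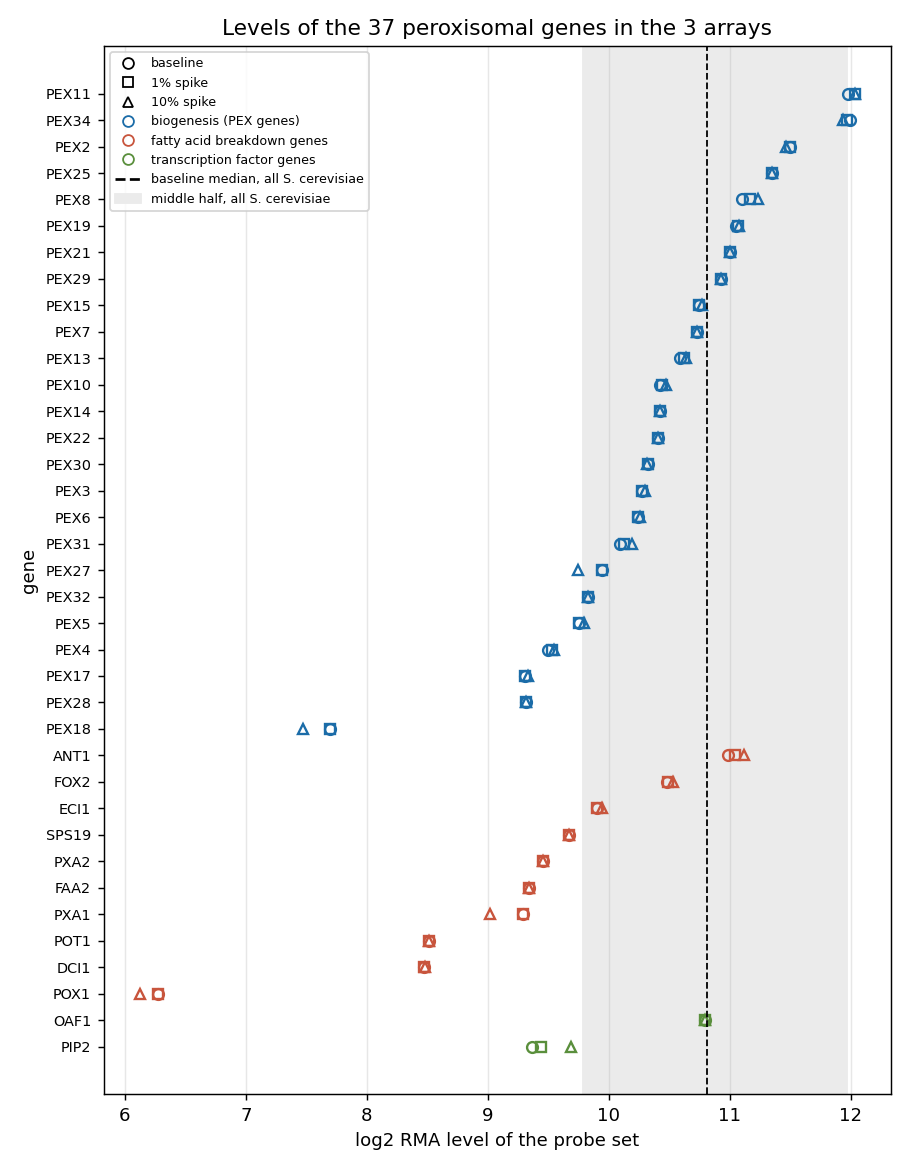
Log2 RMA level (horizontal axis) of each of the 37 genes (vertical axis, ordered by mean level within biogenesis, breakdown and transcription factor genes) in the baseline (circle), 1% (square) and 10% (triangle) arrays. The dashed line is the baseline median of all S. cerevisiae probe sets, 10.81, and the grey band runs from their lower to their upper quartile. For most genes the symbols coincide; PIP2, PXA1, PEX18 and PEX27 show the widest gaps.

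Among the biogenesis genes, the cargo receptor genes covered the widest span of any role. PEX5, which encodes the receptor for the C-terminal targeting signal, was at 9.75, 9.75 and 9.80 in the baseline, 1% and 10% arrays. PEX7, which encodes the receptor for the N-terminal signal, was at 10.73 in all arrays. Pex7 needs a co-receptor, and PEX18 and PEX21 encode a pair of related proteins that share this task. PEX21 was at 11.01 in all arrays, while PEX18 was the lowest of the biogenesis genes, at 7.70, 7.70 and 7.47. The PEX18 probe set lay 3.31 below that of PEX21 in the baseline array.

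The docking genes, whose products receive the loaded receptors at the membrane, lay closer together. PEX13 was at 10.59, 10.63 and 10.64 in the baseline, 1% and 10% arrays, and PEX14 was at 10.42 in each. PEX17 was lower, at 9.31, 9.31 and 9.33. PEX8, which encodes a protein on the inner face of the membrane that links docking to the ubiquitin ligases, was at 11.10, 11.17 and 11.23. It was the only gene of this role whose 10% over baseline difference, 0.13, reached 0.1 in size.

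PEX2 and PEX10 encode RING ubiquitin ligases that mark the receptors for return. PEX2 was the third highest of the biogenesis genes, at 11.50, 11.50 and 11.47, and PEX10 was at 10.42, 10.44 and 10.48. PEX4, which encodes the ubiquitin-conjugating enzyme of this step, was among the lower biogenesis genes at 9.50, 9.53 and 9.55. PEX22, its membrane anchor, was at 10.41 in all arrays. PEX6 encodes an AAA ATPase that pulls ubiquitinated receptors out of the membrane, and was at 10.24, 10.24 and 10.26. PEX15, which anchors this ATPase to the membrane, was at 10.75, 10.75 and 10.78. The recycling genes PEX4, PEX6, PEX15 and PEX22 thus lay within 9.50 to 10.75 in the baseline array.

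PEX3 and PEX19 insert proteins into the peroxisomal membrane. PEX3, the membrane receptor, was at 10.28, 10.28 and 10.30, and PEX19, the soluble chaperone, at 11.05, 11.07 and 11.08. The 10% over baseline differences of this pair were 0.017 and 0.027.

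The 9 genes for division, number and size of the organelle included the highest levels of all 37. PEX11, whose product elongates the membrane before division, was at 11.98, 12.04 and 12.04. PEX34, which acts on peroxisome number together with Pex11 and its relatives, was at 12.00, 11.98 and 11.94. PEX25, related to PEX11, was the fourth highest biogenesis gene, at 11.35 in all arrays. Its paralog PEX27 was lower, at 9.95, 9.95 and 9.75, which put PEX25 above it by 1.41 without spike and by 1.60 with 10% spike. PEX28 and PEX29, a related pair that acts on peroxisome size and number, were at 9.31 in all arrays and at 10.93, 10.93 and 10.93. PEX30, PEX31 and PEX32, which also act on size and number, were at 10.33, 10.10 and 9.83 in the baseline array. Between PEX30 and PEX31 the gap was 0.23 without spike and 0.12 with 10% spike.

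The core beta-oxidation enzymes act one after another, and their probe sets lay far apart. POX1 encodes the acyl-CoA oxidase of the opening step and had the lowest level of the 37, at 6.27, 6.28 and 6.12. FOX2, the multifunctional hydratase and dehydrogenase gene, was at 10.48, 10.49 and 10.53. POT1, the thiolase gene, was at 8.51 in all arrays. POX1 lay near the level of probe sets that may hold no yeast signal. The array has 1747 probe sets with lower-case symbols that are not in the S. cerevisiae table, with a median of 4.86 and a 95th percentile of 6.45 in the baseline array. POX1 was the only member not above that percentile, in each of the 3 arrays. Of the lower-case probe sets, 6 carry pex symbols (pex5, pex6, pex7, pex11, pex13 and pex14) and lay between 4.11 and 6.31 in the baseline array. Their organism is not given in the labels or the annotation.

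Genes for the entry of fatty acids and cofactors differed from each other mainly through ANT1. ANT1 encodes the carrier that brings ATP into the peroxisome and was the highest breakdown gene, at 10.99, 11.05 and 11.12. PXA1 and PXA2 encode the subunits of the ABC transporter for long-chain acyl-CoA. PXA2 was at 9.46 in all arrays, and PXA1 at 9.30, 9.30 and 9.02. FAA2, the acyl-CoA synthetase gene for medium-chain fatty acids inside the organelle, was at 9.34 in all arrays. PXA1, PXA2 and FAA2 thus lay within 0.16 of each other in the baseline array.

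The auxiliary enzymes make unsaturated fatty acids accessible to the core enzymes. ECI1, the enoyl-CoA isomerase gene, was at 9.90, 9.90 and 9.94, and its paralog DCI1 at 8.47, 8.47 and 8.48. SPS19, the dienoyl-CoA reductase gene, was at 9.68 in all arrays. None of these 3 differed by as much as 0.05 between arrays.

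The transcription factor genes behaved differently from each other across the arrays. OAF1 was at 10.80 in all arrays. PIP2 was lowest without spike, at 9.37, 9.44 and 9.69 in the baseline, 1% and 10% arrays. The gap between OAF1 and PIP2 was 1.43 without spike and 1.11 with 10% spike.

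**Figure D2:**
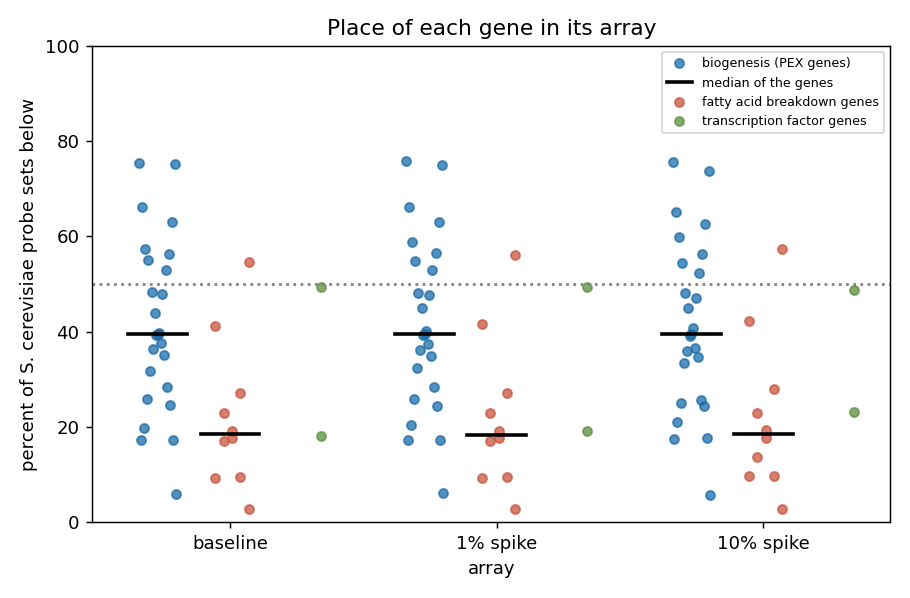
Percent of S. cerevisiae probe sets below each gene (vertical axis) in each array (horizontal axis), for biogenesis, breakdown and transcription factor genes; each point is a gene and the black bars are medians. The breakdown genes gather low, with 9 of 10 below the yeast median in each array and ANT1 above it, while 17 of 25 biogenesis genes lie below it.

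Adding 1% spike left the 37 genes close to the baseline array. The 1% over baseline differences ran from -0.024 for PEX34 to 0.07 for PEX8, with a median of 0. None was higher by 0.2 or more, against 0.0728% of S. cerevisiae probe sets, and none was lower by as much, against 0.291%. The next largest differences after PEX8 were 0.069 for PIP2, 0.058 for ANT1 and 0.052 for PEX11. Values were equal to 3 decimals for 24 of 37 genes, against 62.9% of S. cerevisiae probe sets.

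In the 10% array a few genes stood further from the baseline array. The differences ran from -0.27 for PXA1 to 0.32 for PIP2, with a median of 0 over the 37 genes and of 0 over all S. cerevisiae probe sets. One gene, PIP2, was higher by 0.2 or more, against a background of 1.42%. PXA1 and PEX18 were lower by 0.2 or more, which is 5.41% of the 37 against a background of 3%. PEX27 lay just outside this limit at -0.199. At 0.1 or more, 3 genes were higher (PIP2, ANT1 and PEX8), against 9.49%, and 4 were lower (PXA1, PEX18, PEX27 and POX1), against 8.09%. These shares of the 37, 8.11% and 10.8%, are near the background. No gene was 2-fold higher or 2-fold lower in any comparison, against 0.0182% higher and 0.0364% lower among S. cerevisiae probe sets for 10% over baseline, the same shares for 10% over 1%, and 0% in both directions for 1% over baseline.

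PIP2 had the highest difference of the 37, 0.32 for 10% over baseline and 0.25 for 10% over 1%. Only 8 of 5498 S. cerevisiae probe sets had a higher 10% over baseline difference. The difference was 0.34 with the arrays centred on the median of all non-control probe sets and 0.31 after renewed quantile normalization. PIP2 was singled out from the 37 by this value, and a single array stands behind it.

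Of the 4 genes lower by 0.1 or more, 3 lay at low levels. PXA1, PEX18 and POX1, and also PIP2, lay among the lowest 25% of yeast probe sets by mean level, where 139 of 1376, or 10.1%, had a difference of -0.2 or less and 1.67% one of 0.2 or more. PEX27 lay in the next 25%, where a difference of -0.2 or less was found for 0.947% of 1373 probe sets. As deposited, PEX27 at -0.199 and POX1 at -0.149 did not reach that limit themselves. The part of low signal in these differences was not tested. PXA1 was lower by 0.27 and its partner PXA2 was equal in all arrays, so their gap went from 0.16 without spike to 0.44 with 10% spike. PEX18 was lower by 0.22, against 0 for PEX21, but by 0.18 after renewed quantile normalization, inside the limit of 0.2. PEX27, at -0.21 in that setting, was then past it.

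**Figure D3:**
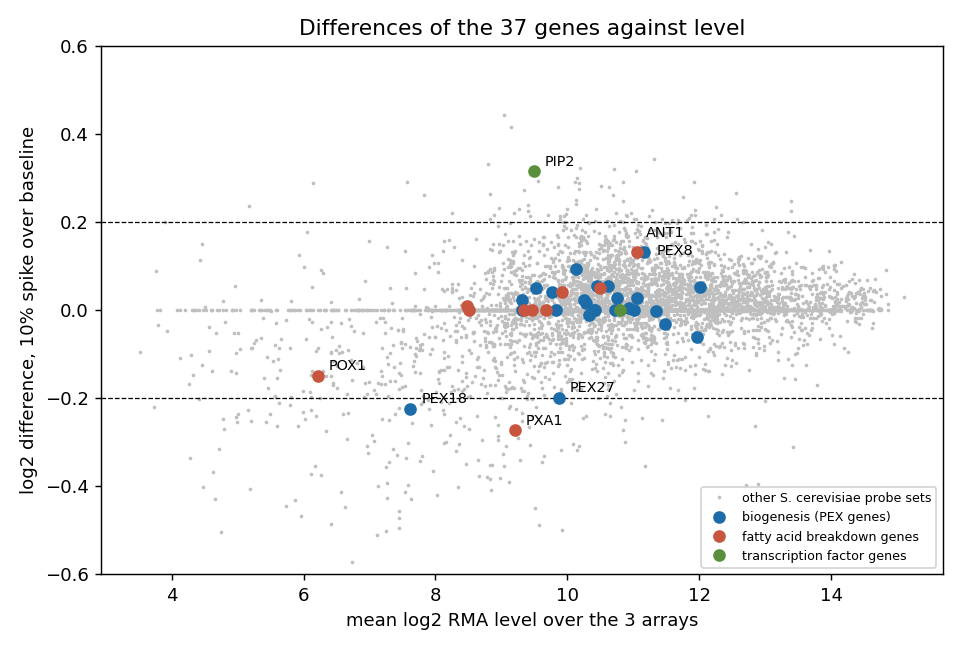
Log2 difference of 10% spike over baseline (vertical axis) against the mean log2 level of the 3 arrays (horizontal axis) for the 37 genes, with the other S. cerevisiae probe sets in grey (14 of these lie outside the plotted range); dashed lines mark 0.2 in either direction. PIP2 stands above the upper line, PXA1 and PEX18 below the lower one and PEX27 at it, while most genes lie near 0.

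Between the spiked arrays, the 10% over 1% difference was 0.2 or more for PIP2 alone, against 0.582%, and -0.2 or less for PXA1 and PEX18, against 2.56%. PEX18 no longer reached that limit with centred arrays or after renewed quantile normalization, where its 10% over 1% difference was -0.18 in both. PXA1, PEX18 and PEX27 had equal values in the baseline and 1% arrays, so their 10% over 1% differences equal those over baseline. The values of 9 genes were higher at each step from baseline to 1% to 10%, against 14.8% of S. cerevisiae probe sets. These were ANT1, FOX2, PEX4, PEX8, PEX10, PEX13, PEX19, PEX31 and PIP2, or 24.3% of the 37. With centred arrays 6 genes met this rule, against 9.02%, and after renewed quantile normalization 9 did, against 14.1%. PEX34 alone was lower at each step, against 7.13%. That count depends on the scaling: with centred arrays 4 genes met it, against 12.2%, and after renewed quantile normalization 18 did, against 49.0%. Equal values in all 3 arrays were found for 10 genes, against 25.9%. With PEX7, 11 genes were equal in the 10% and baseline arrays, against 27.7%, and with PEX11, 11 were equal in the 10% and 1% arrays, against 34.6%. Those equal throughout were PEX14, PEX21, PEX22, PEX28, PEX32, FAA2, POT1, PXA2, SPS19 and OAF1.

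The direction in which small differences leaned depended on the scaling. For 10% over baseline, 18 of the 37 genes were higher as deposited, against 45.1% of S. cerevisiae probe sets, 8 were lower, against 27.2%, and 11 equal. With arrays centred on the median of all 10762 non-control probe sets, 31 were higher, against 78.4%, and 6 lower, against 21.4%. That median level was 7.75, 7.77 and 7.73 in the baseline, 1% and 10% arrays. The median level of S. cerevisiae probe sets alone was 10.81, 10.82 and 10.84, and centring on it was not run. After renewed quantile normalization 15 were higher, against 38.3%, and 22 lower, against 60.0%. The median differences in these settings were 0.018 and -0.010. The median difference of all S. cerevisiae probe sets moved alike, to 0.018 and -0.013, so no direction can be given for the 37 genes. Biogenesis and breakdown genes had median 10% over baseline differences of 0.004 and 0.

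The order of the genes by level hardly changed. Across the 10 breakdown genes the rank of every gene was the same in all arrays, with ANT1 highest and POX1 lowest. Across all 37 genes, 17 changed rank between the baseline and the 10% array, by at most 3 places, and Spearman's rho was 0.996. This correlation is across genes measured in the same background and carries no replicate information. The annotated length of the genes runs from 435 bases for PEX34 to 3144 bases for OAF1. Its Spearman's rho with the baseline level was -0.21 over the 37 genes, against -0.068 over all 5498 S. cerevisiae probe sets. This length was a multiple of 3 for all 37 genes and for 5321 of the 5498, so it need not be a coding length for all of the latter. Breakdown genes had a median length of 1745 bases and biogenesis genes one of 1131 bases. No member genes were direct neighbours on a chromosome by the order of genes in assembly R64, the closest being PEX22 and OAF1 with 2 genes between them.

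Other genes of peroxisomal and fatty acid metabolism showed a wider range of levels than the 37. All 21 listed genes were measured, and their median level without spike was 11.55. The lowest was CTA1, the peroxisomal catalase gene, at 7.394, 7.394 and 7.002. Low values were also found for MLS1, malate synthase, at 8.03, 7.98 and 7.77, and for IDP3, the peroxisomal isocitrate dehydrogenase gene that supplies NADPH to Sps19, at 8.15 in all arrays. The highest was CIT2, peroxisomal citrate synthase, at 13.95 in all arrays. GPD1, a glycerol-phosphate dehydrogenase gene, was at 13.67 in all arrays. FAA4 and FAA1, the acyl-CoA synthetase genes for fatty acids taken up from outside, were at 13.35 and 13.03 in the baseline array.

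Of these 21 genes, 5 were higher in the 10% array than in the baseline array, 6 lower and 10 equal, against 45.1%, 27.2% and 27.7% of S. cerevisiae probe sets, with a median difference of 0. The largest differences in size were -0.39 for CTA1, -0.26 for MLS1, 0.18 for ADR1, which encodes an activator of genes for non-fermentable carbon sources, and 0.15 for INP1, which tethers peroxisomes to the mother cell. CTA1 and MLS1 lay, like PXA1, PEX18 and POX1, among the lowest 25% of yeast levels.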

How the data were processed

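The authors deposited a log2 expression value for each probe set on each array. RMA is named in the submitters' processing notes, without its version or the set of arrays normalized together. No label states the log2 scale, which is taken from what RMA usually returns and from the values' range. RMA gives arrays nearly equal distributions, so a shift common to most RNA cannot show, and its median polish can return exactly equal values. Values were used as deposited. Platform symbols were matched by gene identifier to the S. cerevisiae R64 table, which all 37 members matched with the same symbol; 166 control probe sets (IDs starting with AFFX) stayed outside all counts. No build is named for the probes, so no coordinates are given. Differences were rounded to 3 decimals, with 0.2, 0.1 and 2-fold as limits. The 37 members, the list of 21 other genes and the limits were chosen with earlier results of these data known. Every member was described; all 3 values were given for the 4 highest and 4 lowest of each group and for differences of 0.1 or more. Counting was tested on simulated data. Python 3.11.15, pandas 2.3.3, numpy 2.4.6 and SciPy 1.17.1 were used.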

Additional observations from a re-analysis of the deposited data

How the results depend on the processing

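The alternatives were centred arrays, renewed quantile normalization without control probe sets, averaging per gene, updated symbols, a filter on low levels, a 2-fold limit and, for levels, means, other membership and no shared-probe probe sets. Averaging, updated symbols and leaving out shared-probe probe sets altered nothing by construction, since each of the 37 genes has 1 unshared probe set. The count of genes past 0.2 in either direction was 3 for 10% over baseline and 3 for 10% over 1%. With centred arrays the second count was 2, without PEX18, and after renewed quantile normalization it was 3, with PEX27 in place of PEX18. Both counts were 0 without the genes below the lower quartile of yeast levels, a filter that kept 24 of 37 and removed PIP2, PXA1 and PEX18, and 0 with the 2-fold limit. Median differences stayed between -0.028 and 0.047 under all alternatives run. Biogenesis minus breakdown levels were 1.18 to 1.20 with means and 0.86 to 1.01 with the transcription factor genes among the breakdown genes. No paired analysis was possible because each group is 1 array. Without replicates, no difference of this size can be told from the variation between arrays.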
